A study of Mus musculus with 10 samples.

Results

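H3K27me3 at the start sites of mouse genes was compared between the retina of E17.5 embryos and the retina of PN15 pups, the first and the last stage of the series. The comparison took in all 20045 gene symbols of the deposited table, which lists 25152 entries, and rested on 2 of the 10 samples of the series, 1 library on each side. Of these symbols, 2817 were taken as marked, meaning that the mean of their H3K27me3 values at PN1 and PN7, stages that do not enter the comparison, was at least 50. Chromatin of C57BL/6j retinas was cut with micrococcal nuclease and immunoprecipitated for H3K27me3 or H3K4me2 at 4 stages (E17.5 and postnatal days 1, 7 and 15), with at least 20 retinas of a stage pooled. The mice were wild type according to the methods of the study, whereas the sample labels name the strain Pde6b (rd1/rd1) for every library and write the embryonic stage as E17. Labels and methods also swap the antibody numbers between the marks, and the sample title was followed. With a single library a stage there was no replicate error, so no difference below has a test. Whole retina holds many cell types, and fewer cells of a type cannot be told apart from less of the mark per cell.

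H3K27me3 is laid down by Polycomb repressive complex 2 and read by Polycomb repressive complex 1, and it is found at the promoters of silent developmental genes. Many such promoters also carry methylated H3K4, which marks active or poised promoters. Between late gestation and the end of the second postnatal week the mouse retina changes from a tissue rich in dividing progenitors to one dominated by post-mitotic rod photoreceptors, while bipolar cells and Mueller glia are born last. The values are normalized occupancies, that is, reads within 2.5 kb of a transcription start site (TSS) that the authors scaled to the mapped total and then rounded. A change is the log2 ratio of PN15 to E17.5 with 1 added to each value. A marked symbol had lost the mark at a change of −1 or lower, had lost it deeply at −2 or lower, had resisted the loss at 0 or higher and had gained the mark at 1 or higher.

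Promoters of genes at the extremes of this comparison are shown here, to set their base composition beside the values. The deposited table does not say on which TSS of a gene its window was centred, so a promoter shown may lie outside the window. That of Nfic lies 3832 bp from the annotated gene start, and the inner Pax6 promoter 13567 bp from it. They are the RefSeq promoters, from 250 bases before to 50 bases after the start, of 2 of the genes that lost most, the 2 that gained most and the gene that was highest at PN15, placed on mm9. Sequences run 5′ to 3′ on the strand of the gene and capitals mark CG dinucleotides. Yif1a lies at chr19:5088288-5088587 (plus strand), Nfic at chr10:80889869-80890168 (minus), the start-most Pax6 promoter at chr2:105508803-105509102 (plus) and the inner one at chr2:105522370-105522669 (plus), Ampd2 at chr3:107888271-107888570 (minus) and Dmbx1 at chr4:115612482-115612781 (minus).
Yif1a (lost): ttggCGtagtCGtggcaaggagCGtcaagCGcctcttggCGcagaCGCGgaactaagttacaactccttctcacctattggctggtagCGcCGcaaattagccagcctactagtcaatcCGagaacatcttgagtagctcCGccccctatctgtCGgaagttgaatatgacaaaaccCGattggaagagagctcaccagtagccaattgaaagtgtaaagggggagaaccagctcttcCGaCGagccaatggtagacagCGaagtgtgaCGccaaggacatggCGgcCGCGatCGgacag
Nfic (lost): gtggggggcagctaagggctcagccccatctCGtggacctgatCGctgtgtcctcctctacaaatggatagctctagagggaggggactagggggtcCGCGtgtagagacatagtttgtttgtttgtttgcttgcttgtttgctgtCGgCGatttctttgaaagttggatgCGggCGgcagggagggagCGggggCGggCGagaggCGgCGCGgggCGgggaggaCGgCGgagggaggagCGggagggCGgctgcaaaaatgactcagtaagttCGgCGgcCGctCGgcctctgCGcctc
Pax6, start-most (gained): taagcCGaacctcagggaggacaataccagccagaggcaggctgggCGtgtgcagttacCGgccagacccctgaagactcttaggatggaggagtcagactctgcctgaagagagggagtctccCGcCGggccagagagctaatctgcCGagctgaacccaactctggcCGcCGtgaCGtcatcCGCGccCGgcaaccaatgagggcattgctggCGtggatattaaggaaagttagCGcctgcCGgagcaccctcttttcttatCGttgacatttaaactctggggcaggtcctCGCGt
Pax6, inner (gained): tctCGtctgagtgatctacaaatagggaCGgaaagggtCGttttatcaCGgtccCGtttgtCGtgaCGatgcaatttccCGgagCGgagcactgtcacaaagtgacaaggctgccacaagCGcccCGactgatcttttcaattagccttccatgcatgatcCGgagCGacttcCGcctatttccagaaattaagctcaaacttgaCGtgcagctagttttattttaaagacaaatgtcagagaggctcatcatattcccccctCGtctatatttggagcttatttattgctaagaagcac
Ampd2 (gained): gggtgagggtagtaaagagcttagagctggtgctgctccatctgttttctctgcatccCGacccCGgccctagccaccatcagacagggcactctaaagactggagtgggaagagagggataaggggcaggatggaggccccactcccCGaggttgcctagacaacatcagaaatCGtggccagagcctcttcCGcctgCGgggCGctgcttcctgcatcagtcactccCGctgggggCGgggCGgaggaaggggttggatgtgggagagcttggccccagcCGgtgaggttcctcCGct
Dmbx1 (highest at PN15): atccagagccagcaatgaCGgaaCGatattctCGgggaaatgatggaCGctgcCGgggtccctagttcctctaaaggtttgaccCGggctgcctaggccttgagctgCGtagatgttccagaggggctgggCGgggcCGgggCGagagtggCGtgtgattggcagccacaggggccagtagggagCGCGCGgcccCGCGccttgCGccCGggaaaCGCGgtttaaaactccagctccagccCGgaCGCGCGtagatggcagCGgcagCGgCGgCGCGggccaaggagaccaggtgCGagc

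The Yif1a promoter held 21 CG dinucleotides, that of Nfic 24, those of Pax6 18 and 16, that of Ampd2 12 and that of Dmbx1 30. Over 32851 RefSeq promoters of the same length the median was 7, with quartiles of 3 and 20, so all 6 lay above the median, whether they belonged to a gene that lost the mark or to one that gained it. Over the whole window of 5 kb around the annotated gene start the median number of CG dinucleotides was 148 for the symbols with a deep loss, 157 for those that gained the mark and 134 for all marked symbols, against 96 for unmarked symbols.

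H3K27me3 was lower at PN15 at most of the genes that carried it. On the deposited scale the median change was 0.00 over all symbols and −0.89 over the marked symbols. The marked symbols held 70.8% of the summed occupancy at E17.5 and 53.8% at PN15, and their sum at PN15 was 0.516 times that at E17.5. Over all symbols 16.1% had a change of −1 or lower, 1.85% one of −2 or lower, 50.6% one of 0 or higher and 12.2% one of 1 or higher. Among the marked symbols 1254 had lost the mark (44.5%), 193 of them deeply (6.85%), whereas 473 resisted the loss (16.8%), 127 of which gained the mark (4.51%). The marked symbols thus exceeded the genome-wide share of losses and had smaller shares of symbols at 0 or higher and at 1 or higher. The genome-wide shares include many low values, where a small difference in reads passes a limit. Of 6750 symbols with a PN1 and PN7 mean of 5 to 10, 11.2% were at −1 or lower and 13.2% at 1 or higher, around a median of 0.

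**Figure D1:**
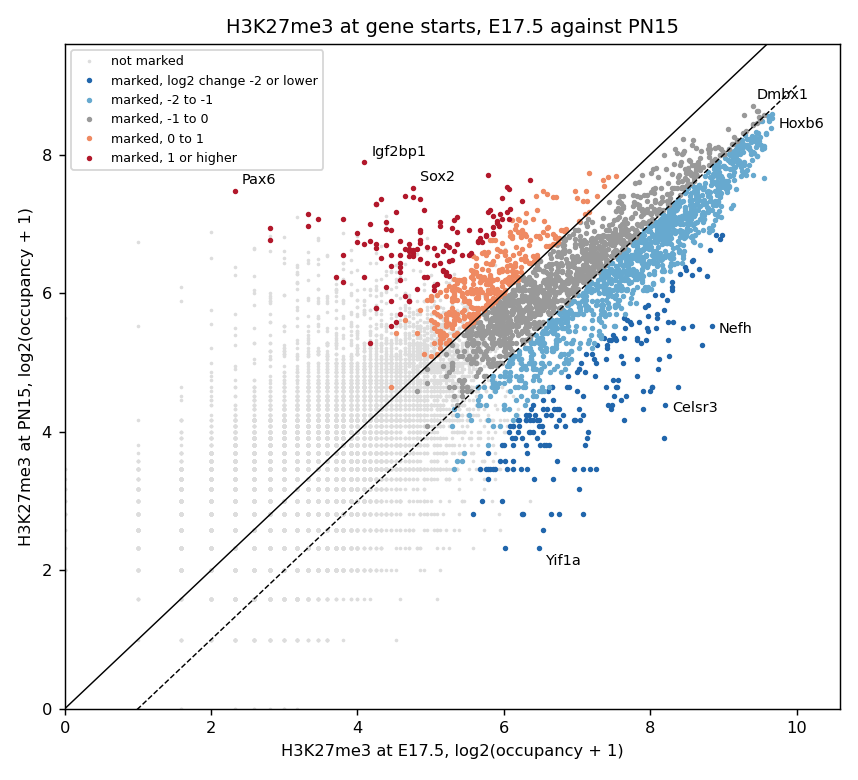
H3K27me3 at E17.5 (x axis) against PN15 (y axis) for 20045 symbols, both as log2 of the normalized occupancy plus 1, with 1 point a symbol. Points are coloured by the change of the 2817 marked symbols, grey points are unmarked, the solid line marks equal values and the dashed line a change of −1. The strongest genes at the upper right lie along the dashed line, with Pax6, Igf2bp1 and Sox2 far above both lines and Celsr3 and Nefh far below them.

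Genes that are silent in retina were used to read the scale of the libraries. The 1343 olfactory and vomeronasal receptor symbols had a median H3K27me3 occupancy of 7, 7, 5 and 10 over the 4 stages in order, and a median change of 0.49 from the first to the last. Their summed occupancy at PN15 was 1.40 times that at E17.5. The receptors were higher and the marked symbols lower in the PN15 library, whereas the 17228 unmarked symbols as a whole summed to 1.07 times their E17.5 value with a median change of 0.00. Since values are shares of the reads of a library, a global fall of the mark and a less selective immunoprecipitation cannot be told apart. With PN15 rescaled so that the receptors kept their E17.5 median, the median change over marked symbols was −1.40, 1925 had lost the mark and 240 resisted. Values of single genes below are as deposited, without this rescaling, and are given in the order E17.5, PN1, PN7, PN15.

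The loss grew with the level of the mark and then levelled off. Of the 1137 symbols whose PN1 and PN7 mean lay between 50 and 100, 25.3% had lost the mark and 32.2% resisted, with a median change of −0.40. Between 100 and 200 the median change of 789 symbols was −0.83. Between 200 and 400 it was −1.25 over 581 symbols, 72.3% of which had lost the mark. Of the 310 symbols at 400 or more, 71.9% had lost the mark, none resisted, and the median change was −1.18 with quartiles of −1.39 and −0.98. The most heavily marked genes therefore lay in a narrow band. At the limit itself, 213 symbols with a mean of 45 to 50 had a median change of −0.15 and 165 with a mean of 50 to 55 one of −0.33.

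The narrow band was best seen at the Hox clusters, which pattern the body axis and are silent in the retina. All 39 Hox symbols were marked, and their H3K27me3 ranged between 464 and 809 in the embryo and between 223 and 397 at PN15. Of these, 27 had lost the mark, none deeply, and none resisted. Their changes ran from −1.48 at Hoxd10 (703, 875, 658 and 252) to −0.71 at Hoxb7 (622, 920, 638 and 380). Hoxb7 and Hoxb8 start 2352 bp apart and share part of their windows. The median over the Hox symbols was −1.12, and other lists of developmental regulators are given by their counts and medians, to be read against the 44.5% of all marked symbols that had lost the mark, the 16.8% that resisted and the 4.51% that gained it. Of 18 marked Wnt ligands 13 had lost the mark (72.2%) and 2 resisted (median −1.28, range −1.85 to 1.19). Of 12 Fgf ligands 7 had lost it and 2 resisted (median −1.21), and of 27 Forkhead genes 16 had lost it and 4 resisted (median −1.17, range −2.07 to 1.91). Of 10 Bmp and Gdf ligands 6 had lost it and none resisted (median −1.06). Of 44 homeobox genes of the Lhx, Irx, Pax, Dlx and related families 24 had lost the mark (54.5%) and 6 resisted (13.6%), 3 of which gained it (6.82%), shares not far from those of all marked symbols (median −1.06, range −1.55 to 5.16, the highest being Pax6). Of the 5 marked Gata genes 1 had lost the mark (20%), a smaller share than over all marked symbols (median −0.77).

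The highest occupancies at PN15 belonged to Hox genes and Dmbx1, and 2 of the 8 highest, Hoxb6 and Hoxc10, had passed the limit for a loss. Dmbx1, a homeobox gene of midbrain development, had 676, 925, 621 and 416. Hoxa3 had 702, 1063, 762 and 397, and Hoxa7 709, 1062, 713 and 395. Hoxb6, the highest of all symbols at E17.5, went from 809 to 385, and Hoxa11, Hoxb7, Hoxc10 and Hoxb5 ended between 371 and 380. All 8 were higher at PN1 than at E17.5, lower at PN7 than at PN1 and lower again at PN15. The change of Dmbx1 was −0.70, with a 95% counting interval of −0.87 to −0.53 for the log2 ratio. Intervals here cover counting error only. They use exact binomial limits on the reads behind the values, 1 read being worth 0.873 at PN15 and being taken as 1 at E17.5.

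A deep loss was found at 193 symbols. Since PN15 against E17.5 defined them, their levels at those stages are a description. Their median H3K27me3 was 134, 151, 67 and 20. At PN15, 123 of them (63.7%) did not exceed 27, which is percentile 95 of the silent receptors. All 193 were lower at PN7 than at PN1, where 75.2% of all marked symbols were. All were also lower at PN15 than at PN7 (91.6% of all marked symbols), which their choice by a low PN15 value largely sets. At PN1, 80.3% of the 193 were higher than at E17.5, near the 84.4% of all marked symbols. The choice of marked symbols by PN1 and PN7 leaves out genes that had lost the mark before PN1. For those kept, the intervals after PN1 had a median change of −1.10 from PN1 to PN7 and of −1.63 from PN7 to PN15. Another annotated gene starts within 5 kb of 44 of the 193 symbols, and for 24 that neighbour had a deep loss too, so these do not count as separate events.

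**Figure D2:**
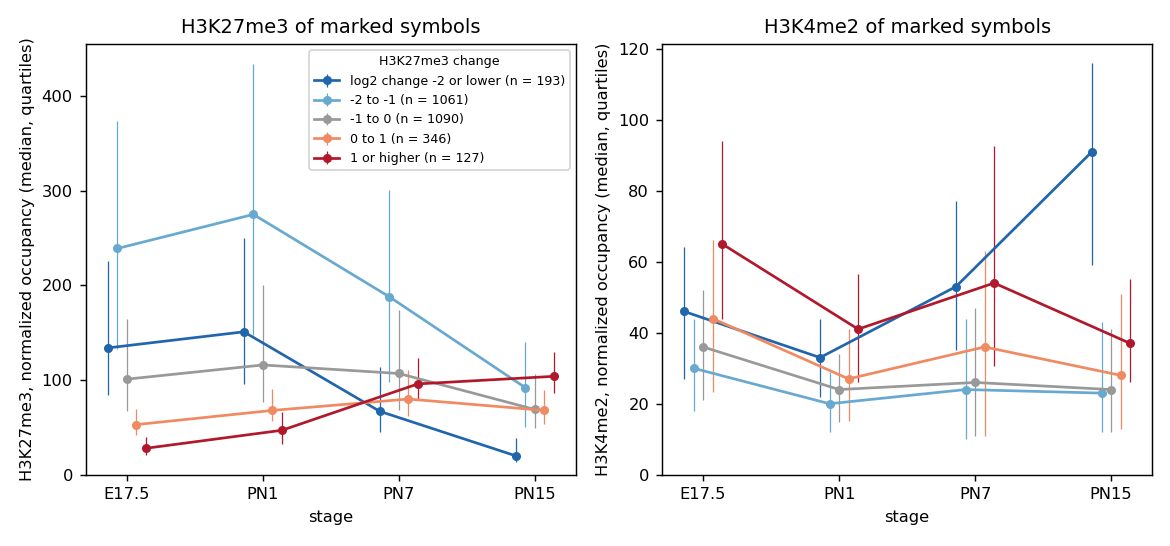
Median normalized occupancy of H3K27me3 (left) and H3K4me2 (right) at each stage for the 2817 marked symbols, divided by their H3K27me3 change between E17.5 and PN15. Points are medians and bars run from the lower to the upper quartile over symbols. The symbols with a deep loss go from 134 to 20 in H3K27me3 and from 46 to 91 in H3K4me2, whereas those that gained H3K27me3 go from 28 to 104 and from 65 to 37.

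The lowest changes are given gene by gene. Celsr3, an atypical cadherin that guides axon tracts, on chromosome 9 (108728651 to 108755294, plus strand), had 293, 331, 81 and 20, a change of −3.81 (interval −4.55 to −3.25). Dscaml1, a neuronal cell adhesion molecule also on chromosome 9 (45235288 to 45561343, plus strand), showed 331, 325, 111 and 24, a change of −3.73. In both the decrease lay after PN1, and PN15 was within the range of the silent receptors.

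The lowest change of all marked symbols, −4.28, was that of Pura, which encodes a nucleic acid binding protein of neurons and had 135, 171, 67 and 6. Yif1a, which acts in transport between endoplasmic reticulum and Golgi, had 88, 90, 34 and 4, a change of −4.15. Its annotated start lies 3022 bp from that of Tmem151a, with 348, 377, 167 and 44, so the windows of the genes overlap. Nfic, a nuclear factor I transcription factor, had 92, 95, 12 and 5. Gas6, a ligand of the TAM receptor kinases, had 129, 136, 36 and 8. Nr4a1, an orphan nuclear receptor induced by activity, had 152, 132, 53 and 10. Gdap1l1, the calcineurin subunit gene Ppp3cc, the leucine-rich repeat gene Lingo3 and the calsyntenin gene Clstn1 were also among the 12 lowest, with PN15 values of 4 to 10 for these 4 genes. H3K4me2 was higher at PN15 in all 12, with changes of 0.38 to 1.94 in that mark.

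Most of the 127 symbols that gained the mark were higher at PN1 than at E17.5, as were most of those with a deep loss. The median change over that interval was 0.66 for the gained symbols and 0.16 for those with a deep loss. The median H3K27me3 of the 127 symbols was 28, 47, 96 and 104. Of them, 91.3% were higher at PN1 than at E17.5, 89.0% higher at PN7 than at PN1 and 56.7% higher at PN15 than at PN7. Over all marked symbols these shares were 84.4%, 24.2% and 7.81%. Since marked symbols were chosen by PN1 and PN7, a symbol low at E17.5 had to be high by PN7 to be among them, and this course says nothing of when the mark is gained in general. None was at or below 27 at PN15. Pax6, a master regulator of eye development on chromosome 2 (105509053 to 105543317, plus strand), had the highest change of all marked symbols. Its H3K27me3 was 4, 15, 113 and 178, a change of 5.16 with a counting interval of 4.10 to 7.37. Its H3K4me2 was 137, 97, 114 and 44 at the same stages. The E17.5 value of Pax6 lay below the median of the silent receptors and its PN15 value above that of most marked genes, whose upper quartile was 116.

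Igf2bp1, an RNA-binding protein of fetal growth on chromosome 11 (95818477 to 95867254, minus strand), had the highest PN15 value among the 12 largest gains. Its H3K27me3 was 16, 32, 146 and 236, a change of 3.80 (interval 3.15 to 4.71), and its H3K4me2 went from 101 at E17.5 to 6 at PN15. Tbx2, a T-box repressor of the dorsal retina, had 19, 30, 72 and 164 for H3K27me3 and 105 and 34 for H3K4me2 at E17.5 and PN15. Ampd2, an AMP deaminase, had 6, 11, 94 and 122. Irs1, an adaptor of the insulin receptor, had 6, 20, 86 and 108, and Zic2, a zinc finger regulator of retinal axon crossing, had 15, 39, 79 and 116. The lipase-like gene Abhd2, the focal adhesion gene Zyx, the heparan sulfatase gene Sulf2 and the histidine ammonia-lyase gene Hal had 9 to 13 in the embryo and reached 125 to 141 at PN15. Dgkq, a diacylglycerol kinase, had 18, 21, 115 and 156 and Idua, a lysosomal enzyme, 18, 24, 139 and 155. All 12 were higher at each later stage than at the stage before. H3K4me2 was lower at PN15 in 9 of the 12, and Hal, Idua and Zic2 had higher values at PN15, with changes of 0.15 to 0.49.

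**Figure D3:**
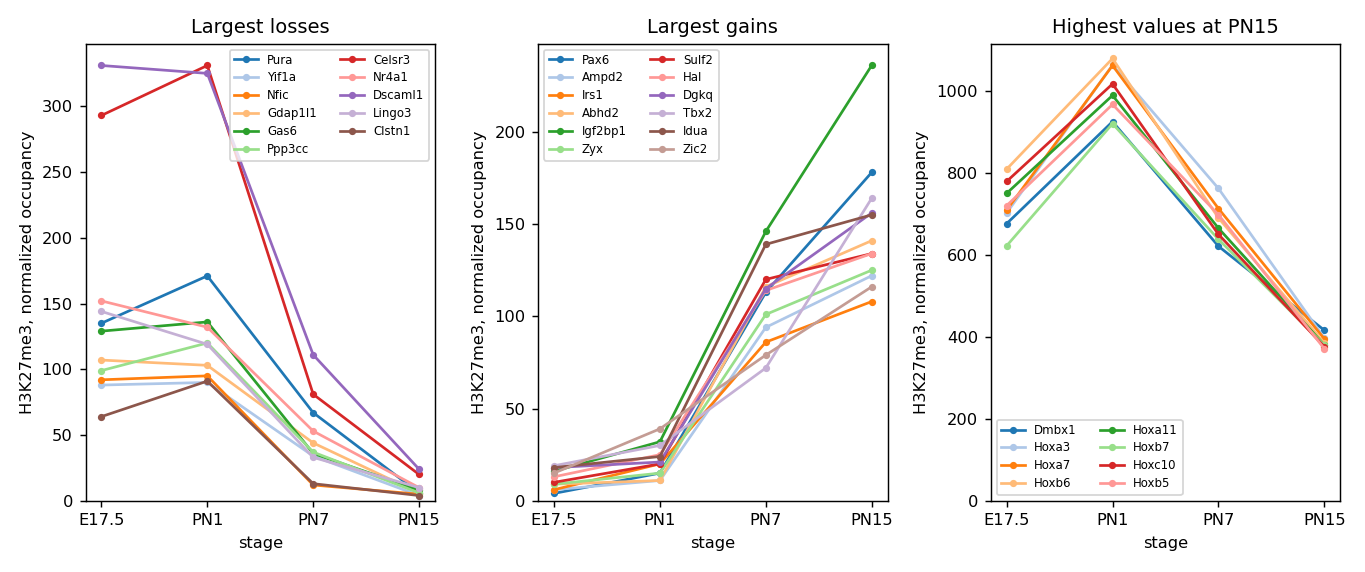
H3K27me3 as normalized occupancy at the 4 stages for 11 of the 12 marked symbols with the lowest change (left), the 12 with the highest change (middle) and the 8 with the highest value at PN15 (right), with 1 line a symbol and 1 library a point. The left lines end between 4 and 24, the middle lines start between 4 and 19 and end between 108 and 236, and the right lines peak at PN1 between 920 and 1079.

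Genes of the eye field and of retinal progenitors had the highest median of the lists with at least 5 marked members. Of 22 such genes 10 were marked, and 8 of the 10 resisted the loss and 6 gained the mark, where 16.8% of all marked symbols resisted and 4.51% gained it. Their median change was 1.43, but 0.19 over the 4 genes left when marked symbols were chosen by E17.5 and 0.72 over the 3 left at a limit of 100. Sox2, a factor of neural progenitors on chromosome 3 (34548927 to 34551383, plus strand), had 26, 75, 112 and 182, a change of 2.76 (interval 2.21 to 3.45), while its H3K4me2 went from 104 to 36. Lhx2, an eye field factor, had 28, 62, 85 and 117. Foxn4, which acts in progenitors of amacrine and horizontal cells, had 28, 53, 64 and 108, and Notch1, the receptor that keeps progenitors undifferentiated, had 32, 66, 42 and 84. Ccnd1, the main D-type cyclin of the retina, had 71, 134, 222 and 126, and Neurog2, a proneural factor, had 101, 152, 232 and 167. Both of these peaked at PN7 and were above E17.5 at PN15. Olig2 had 329, 534, 423 and 260 and neither resisted nor passed the limit for a loss. Atoh7, the factor that ganglion cell genesis requires, was the 1 marked gene of the list that had lost the mark, with 97, 120, 66 and 24, a change of −1.97 (interval −2.71 to −1.41). Counted over all 22 genes, marked or not, 14 had a change of 1 or higher and 1 had a change of −1 or lower, where the genome-wide shares were 12.2% and 16.1%.

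**Figure D4:**
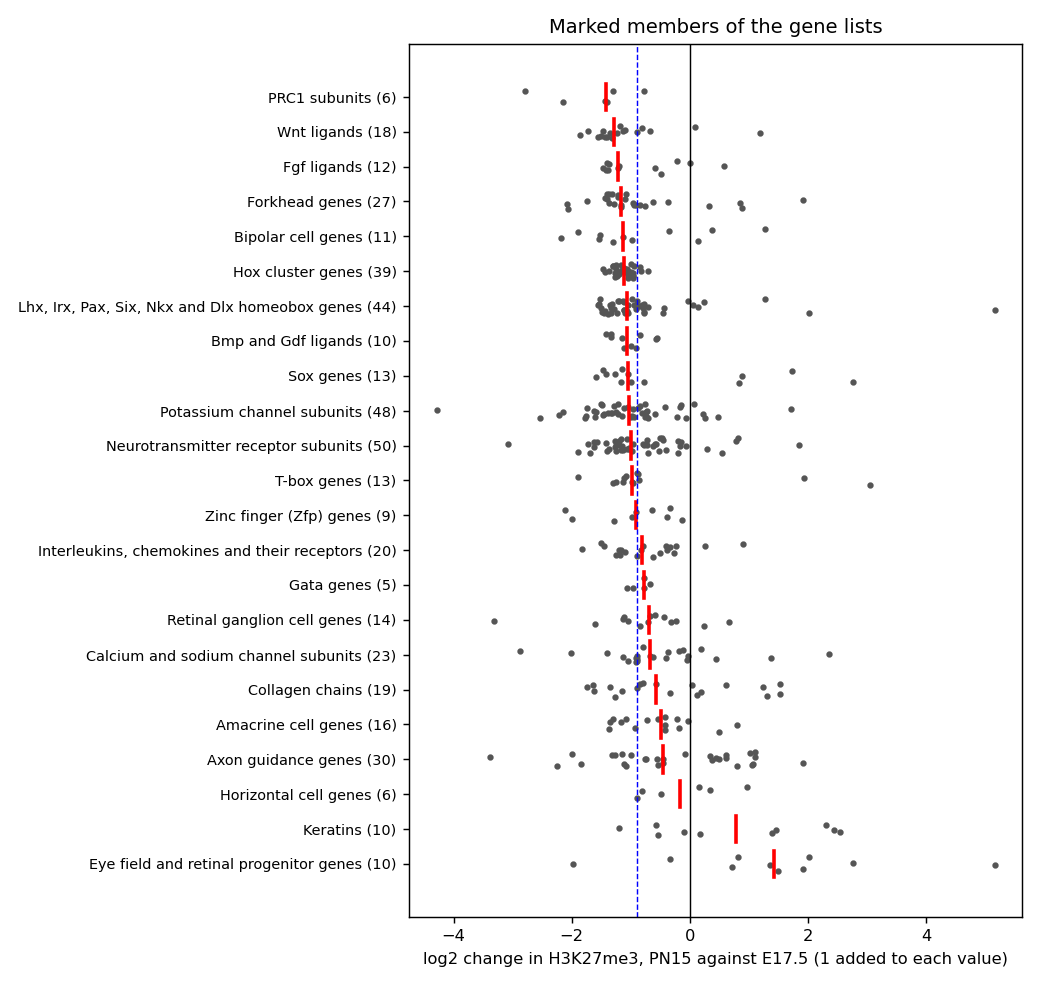
Change in H3K27me3 between E17.5 and PN15 (x axis, log2 with 1 added to each value) of the marked members of each list with at least 5 of them, the silent receptors apart, with 1 point a symbol and the number of marked members in brackets. Red bars are list medians, the dashed line is the median of all marked symbols and the solid line no change. The Hox points lie in a narrow band at −1.48 to −0.71, and the progenitor genes are the list furthest to the right, with a median of 1.43.

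Rod genes with the mark lost it. Of 25 rod genes 4 were marked, where 2817 of all 20045 symbols were, and all 4 had lost H3K27me3, 3 of them deeply, where 44.5% of all marked symbols had lost it and 6.85% deeply. Abca4, the retinoid transporter of outer segment discs, had 169, 174, 105 and 37, with H3K4me2 of 36 at E17.5 and 160 at PN15. Slc24a1, the rod sodium-calcium-potassium exchanger, had 182, 180, 157 and 40, with H3K4me2 of 14 and 111. Gucy2e, a photoreceptor guanylate cyclase, had 72, 108, 34 and 17. Guca1a, the activator of that cyclase, had 117, 158, 144 and 58, a change of −1 that lies exactly on the limit for a loss. The remaining 21 rod genes had H3K27me3 of less than 50 at E17.5 and at PN15, and were thus low at both ends of the course.

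The 3 marked cone genes all resisted and 2 of them gained the mark, where 16.8% of all marked symbols resisted and 4.51% gained it. Cnga3, a subunit of the cone cyclic nucleotide-gated channel, had 50, 69, 100 and 110, the cone transducin gene Gnat2 had 51, 43, 72 and 95, and Gngt2, its gamma subunit, had 67, 72, 54 and 148. Abi3, which overlaps Gngt2 on chromosome 11, had 65, 74, 55 and 143, so this gain cannot be assigned to Gngt2 alone. Cones are a small minority of photoreceptors in mouse. Among 13 Mueller glia genes the 2 marked ones resisted. Sox9, which gained the mark, had 39, 77, 110 and 132, and Sox8 had 40, 66, 42 and 72. Rlbp1, the retinaldehyde-binding protein of Mueller glia, lay under the limit for marked genes at PN1 and PN7 but had 8, 11, 55 and 136, and it was singled out after its values were seen.

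Of 11 marked bipolar genes 6 had lost the mark (54.5%) and 3 resisted (27.3%), where 44.5% and 16.8% of all marked symbols did. Otx2, a homeobox factor of photoreceptors and bipolar cells, had a deep loss, with 212, 289, 130 and 46 and H3K4me2 of 73 at E17.5 and 140 at PN15. Grm6, the glutamate receptor of ON bipolar cells, had 451, 457, 293 and 121. Vsx1 had 378, 459, 328 and 152, Bhlhe23 540, 607, 404 and 186, Prdm8 251, 362, 204 and 87 and Isl1 316, 439, 372 and 144. In contrast Irx5, a homeobox gene of OFF bipolar cells, had 81, 182, 196 and 198, and Irx6 had 154, 137, 183 and 169.

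The lists of amacrine, horizontal and ganglion cells had medians above that of all marked symbols (−0.89), of which 44.5% had lost the mark and 16.8% resisted. The 16 marked amacrine genes had a median change of −0.48, with 5 that had lost the mark (31.2%) and 2 that resisted (12.5%), and the median was −0.83 over the 12 left at a limit of 100. The vesicular transporters Slc18a3 (492, 652, 398 and 191) and Slc32a1 (481, 566, 408 and 188) and the acetylcholine synthesis gene Chat (379, 508, 292 and 154) had lost it. The transcription factor Nr4a2 had 131, 198, 216 and 129, and Tcfap2b 297, 447, 402 and 221. None of the 6 marked horizontal cell genes had lost the mark, and 3 resisted, with a median of −0.16 that was −0.49 over the 5 left at a limit of 100 and −0.67 with PN15 rescaled. Among them Lhx1 had 564, 797, 474 and 304, Onecut1 240, 377, 211 and 171, Onecut2 184, 280, 213 and 206 and Prox1 55, 119, 110 and 108. Of 14 marked ganglion cell genes 5 had lost the mark (35.7%) and 2 resisted (14.3%), with a median of −0.69. Nefh, the heavy neurofilament gene on chromosome 11 (4838757 to 4848067, minus strand), departed from the list with 457, 475, 262 and 45, a change of −3.32 (interval −3.77 to −2.92). The ganglion cell factors Pou4f1 and Pou4f2 kept 209 and 223 at PN15, from 335 and 365 at E17.5.

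Ion channel and receptor genes covered a wide range. Shares are to be read against all marked symbols, of which 44.5% had lost the mark and 16.8% resisted. Of 48 marked potassium channel subunits 24 had lost the mark (50%), 4 deeply, and 5 resisted (10.4%), near those shares. The highest change of the list was that of Kcnip2, a channel-interacting protein, with 30, 45, 87 and 101. Of 50 marked neurotransmitter receptor subunits 25 had lost the mark (50%) and 5 resisted (10%). Drd4, the dopamine receptor of photoreceptors, had 278, 302, 151 and 32, with H3K4me2 of 25 and 95, and P2rx4, a purinergic channel, had 23, 14, 87 and 86. Of 23 marked calcium and sodium channel subunits 5 had lost the mark (21.7%) and 4 resisted (17.4%). Scn8a had 131, 102, 74 and 17 and Cacng4 13, 23, 90 and 71. A second entry of Scn8a had a change of −0.35. Of 30 marked axon guidance genes 10 had lost the mark (33.3%) and 13 resisted (43.3%), from Ntng2 (260, 333, 98 and 24) to the Slit receptor Robo1 (25, 29, 86 and 97). Their median of −0.45 changed sign with the limit for marked symbols, to 0.25 over 41 genes at a limit of 30, and was −1 over 13 genes at a limit of 100.

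Other lists are given by their counts, beside the same shares over all marked symbols (44.5% lost, 16.8% resisted). Of 10 marked keratins 1 had lost the mark and 6 resisted, 5 of which gained the mark, where 4.51% of all marked symbols gained it. Those of the 5 with a known position lie close together on chromosome 15 (101289492 to 101700136), so they may not be separate events. The keratin median of 0.78 was −0.32 over the 6 left at a limit of 100 or with marked symbols chosen by E17.5. Krt73 had 20, 16, 110 and 121, while Krt19 had 158, 174, 79 and 68. Of 19 marked collagen chains 6 had lost the mark (31.6%) and 8 resisted (42.1%). Col15a1 had 379, 388, 303 and 113. Col4a2 and Col4a1, which start 21 bp apart and share nearly all of their windows, both had 18, 30, 75 and 54. Of 13 marked Sox genes 7 had lost the mark (53.8%) and 4 resisted (30.8%), and Sox10, a neural crest factor, had 294, 327, 130 and 97. Of 13 marked T-box genes 6 had lost the mark (46.2%) and 2 resisted (15.4%), and T had 750, 784, 540 and 202. Of 20 marked interleukins, chemokines and receptors 8 had lost the mark (40%) and 2 resisted (10%). Among 9 marked zinc finger (Zfp) genes of 301, 3 had lost the mark (33.3%) and none resisted.

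The genes of the Polycomb machinery were examined by complex. Among 13 subunits of Polycomb repressive complex 2 and H3K27 demethylases only Phf19 was marked, with 70, 105, 75 and 58, and the other 12 had 16 or less at E17.5. Of 16 subunits of Polycomb repressive complex 1 and its relatives 6 were marked and 5 of these had lost the mark (83.3%), against 44.5% of all marked symbols. Bmi1, a core subunit, had 124, 151, 60 and 17, a change of −2.80 (interval −3.68 to −2.20), and its window overlaps that of Commd3, with 51, 48, 21 and 7. Cbx7 had 127, 194, 114 and 28, Pcgf1 94, 151, 74 and 35, Cbx2 63, 81, 45 and 25, and Cbx8 178, 321, 142 and 103.

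H3K4me2 had a higher median at PN15 than at E17.5 where H3K27me3 was lost deeply. It did not enter the limits for marked symbols and losses, but the entry used for the 499 marked symbols with several entries was chosen by the columns of both marks. Over all symbols the median H3K4me2 change was 0.13, and the upper quartile of unmarked symbols went from 66 at E17.5 to 81 at PN15. Among the marked symbols 5.29% had an H3K4me2 change of 1 or higher and 21.5% one of −1 or lower. Of the 193 symbols with a deep loss 66 (34.2%) had the higher H3K4me2 and none the lower, and their median H3K4me2 went from 46 at E17.5 to 91 at PN15. The 1061 symbols with a change between −2 and −1 did not share this, since their median H3K4me2 was 30 and then 23, with 4.24% at 1 or higher and 18.9% at −1 or lower. Of the 127 symbols that gained H3K27me3, 1 had the higher H3K4me2 and 35 (27.6%) the lower. Counted by H3K4me2, 111 of the 149 marked symbols with the higher H3K4me2 had lost H3K27me3 (74.5%), against 201 of the 605 with the lower H3K4me2 (33.2%). Over the 2817 marked symbols the Spearman correlation of the changes of the marks was −0.31, as a description across genes that share 4 libraries.

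**Figure D5:**
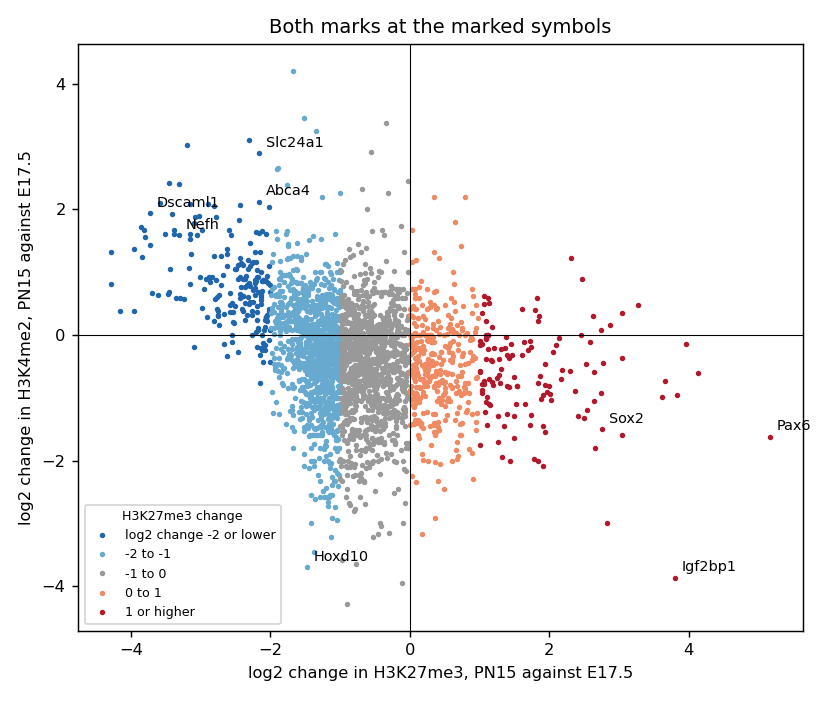
Change in H3K27me3 (x axis) against change in H3K4me2 (y axis), PN15 against E17.5, both log2 with 1 added to each value, for 2817 marked symbols, with 1 point a symbol coloured by its H3K27me3 change. Points at −2 or lower on the x axis lie mostly above 0 on the y axis, Hoxd10 is low on both axes, and Pax6 and Igf2bp1 are high in H3K27me3 and low in H3K4me2.

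At the Hox symbols, none of which resisted the loss of H3K27me3, the median H3K4me2 was 13 at E17.5 and 5 at PN15. The 4 marked rod genes had a median H3K4me2 of 25 and 101, and the 10 marked progenitor genes one of 97.5 and 40.

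The tissue was checked by its defining genes. Pax6, Rax, Six3 and Six6, regulators of the retina, had H3K4me2 between 105 and 137 at E17.5, and Crx and Otx2, regulators of photoreceptors, had 158 and 140 at PN15. Of the cells that a dissection could add, the 8 microglia genes had H3K4me2 of 11 or less at both stages and a summed H3K4me2 of 39 at E17.5 and 40 at PN15. The pigment epithelium list (8 genes) summed to 118 and 119, with Rpe65 at 1 and 2, the lens crystallins (17 genes) to 131 and 94, and the endothelial list (8 genes) to 264 and 158, 112 and 70 of which were Kdr and 4 and 0 Pecam1. Of the endothelial genes Esam had H3K27me3 of 379, 454, 188 and 87, Flt1 425, 520, 362 and 134 and Cldn5 163, 166, 109 and 97. The part of other cell types in the changes was not tested.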

How the data were processed

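ChIP-Seq reads were mapped by the authors to mm9 with Bowtie 0.12.4, multi-mapped reads were discarded, and the midpoints of reads (assumed fragment 190 bp) within 2.5 kb of each RefSeq TSS were added up. The deposited values are scores, since the authors scaled these sums to all mapped reads and rounded them. They are not counts, and total reads are not in the table. All 8 libraries with a column were used, and 0 columns were left out. The rd1/rd1 and anti-GFP samples were not analysed here.

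A symbol with several entries (3224 symbols) was reduced to the entry whose 8 columns had the largest sum, and 25 symbols turned into dates were left so. The value of 1 read at PN15 came from rounded values that hold 2 read numbers and are listed about 1.98 times as often as their neighbours (7 of 8 such values over 1.5 times). No such value was seen at E17.5, where 1 was used as the value that gives the widest interval. A floor of 3 reads was 3 at E17.5 and 2.62 at PN15. Gene positions and CG windows came from GENCODE on NCBIM37 (mm9) for 97.4% of marked symbols, promoters from RefSeq, 1795 of which belonged to marked symbols and were placed by exact match.

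Named genes are the 12 lowest and 12 highest changes, the 8 highest at PN15, the extremes of each list with 5 or more marked symbols, and marked members of the cell type and Polycomb lists. Some genes that this rule covers are not reported here. The members, limits and lists were chosen with earlier results of these data known. The code for changes, counts and the value of 1 read was checked on a simulated table, which is no test of the changes reported. Python 3.11.15, numpy 2.4.6, pandas 2.3.3, scipy 1.17.1 and matplotlib 3.10.9 were used.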

Additional observations from a re-analysis of the deposited data

How the results depend on the processing

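With 1 library a stage, no replicate could be left out and no interval covers the spread between animals. No paired analysis was possible because no result comes from a test. The median change over all symbols (0.00) was −0.15 with the median of the silent receptors subtracted and −0.48 with PN15 rescaled to the receptors. The median over marked symbols (−0.89) was −0.81 with a pseudocount of 10, −1.02 with the receptor median subtracted, −1.40 with PN15 rescaled, −0.67 and −1.10 with a limit of 30 and 100 for marked symbols and −1.01 with marked symbols chosen by E17.5. The count that had lost the mark (1254) was 1925 with PN15 rescaled and 484 at a limit of −1.5. The count that resisted (473) was 240 with PN15 rescaled, 1029 and 107 with limits of 30 and 100, 224 with marked symbols chosen by E17.5 and 900 at a limit of −0.5. The progenitor genes stayed above the median of all marked symbols under each of these settings, by 1.20 to 2.61, while their own median (1.43) was 0.19 with marked symbols chosen by E17.5 (4 genes) and 0.72 at a limit of 100 (3 genes). The keratin median (0.78) was −0.32 at a limit of 100 and with marked symbols chosen by E17.5, with 6 keratins in each, and the axon guidance median (−0.45) was 0.25 at a limit of 30 and −1 at a limit of 100. Rescaling PN15 moved 14 of the 24 list medians beyond their order-statistic intervals, all downwards, and the other settings moved none beyond theirs. The changes of the 75 named genes lay within their counting intervals in 308 of the recalculations and outside them in 67, and none of those of at least 1 in size changed sign.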

Other observations

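Genes on the X chromosome had more H3K27me3 at PN15 than genes on autosomes. Over 801 X-linked symbols the median occupancy in stage order was 12, 10, 12 and 15, against 11, 10, 9 and 10 over 18491 autosomal symbols. Among unmarked symbols 62.1% of 745 X-linked ones were higher at PN15 than at E17.5, against 48.3% of 15802 autosomal ones. The median change of these unmarked X-linked symbols was 0.23, less than the 0.49 of the silent receptors. X-linked symbols were also poorer in H3K4me2, with medians of 16 at E17.5 and 13 at PN15 against 41 and 42 over all symbols. The 56 marked X-linked symbols had a median change of −0.55, against −0.91 for 2689 marked autosomal symbols. Of the 56, 6 had lost the mark, where 44.5% of all marked symbols had. The sex of the pooled animals is not given in the sources used here, and its part in these values was not tested.

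Some symbols outside the marked set had values at or above its limit of 50 at E17.5 or at PN15. Of 17228 unmarked symbols, 263 had H3K27me3 of 50 or more at PN15 and 124 at E17.5, and 17 had 100 or more at PN15 against 0 at E17.5. Among the 48 keratins, marked or not, 20 had a change of 1 or higher, and among 71 axon guidance genes 21 had, while 13 of the 71 had one of −1 or lower. Of 1047 olfactory receptors 263 had a change of 1 or higher, and the shares over all symbols were 12.2% at 1 or higher and 16.1% at −1 or lower.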
